A study of Mus musculus with 6 samples.

Results

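The 10 genes described here are D-type cyclins and CDK inhibitors of the cell cycle, measured in mouse dorsal skin after depilation. They are the cyclins Ccnd1, Ccnd2 and Ccnd3, the CIP/KIP inhibitors Cdkn1b and Cdkn1c, the INK4 inhibitors Cdkn2a, Cdkn2b, Cdkn2c and Cdkn2d, and the phosphatase gene Cdkn3. They were chosen by symbol and are 10 of the 32285 genes in the gene tables. Each of the 6 libraries was made with the 10x Genomics 3′ assay from dorsal skin of 2 wild-type male FVB mice aged postnatal day 55 to 57, whose back hair had been shaved and waxed. The mice were processed apart and their cells mixed in equal numbers, so no cell can be assigned to 1 of the 2 mice. The libraries, 1 per time, were taken at 0 h, at 4 h, at 16 h and then 2, 4 and 6 days (d) after hair removal. With 1 library per time, no test between 2 times was possible, and intervals given for single libraries cover counting error only.

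D-type cyclins bind the kinases CDK4 and CDK6, and the complexes phosphorylate the retinoblastoma protein, which frees E2F factors to turn on genes of DNA replication. INK4 proteins bind CDK4 and CDK6 and keep them from cyclin D. CIP/KIP proteins bind cyclin and CDK complexes, above all those of CDK2. Cdkn3 carries the name of an inhibitor, but its product is a phosphatase that removes the activating phosphate of CDK1 and CDK2, and its transcript is known to peak late in the cycle. In skin, basal keratinocytes divide, suprabasal keratinocytes differentiate, and bulge stem cells of the hair follicle (HF) rest in telogen and divide when hair growth starts.

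The promoters of Cdkn3, Cdkn1b and Cdkn2b are shown as examples of the differences below. Cdkn3 had the largest difference of the members between cycling and non-cycling cells, Cdkn1b was lower at 4 h than at 0 h in 5 keratinocyte classes, and Cdkn2b was higher in the suprabasal classes. Each sequence is the RefSeq sequence of GRCm38 before the annotated start of the gene, read along the gene's strand, and capitals mark matches to the motifs searched.

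Cdkn3: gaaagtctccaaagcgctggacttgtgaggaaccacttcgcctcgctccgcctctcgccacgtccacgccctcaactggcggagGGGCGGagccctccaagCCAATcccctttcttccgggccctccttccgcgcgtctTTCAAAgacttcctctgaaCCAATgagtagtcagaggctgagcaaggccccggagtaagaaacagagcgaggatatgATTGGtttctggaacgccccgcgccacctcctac

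Cdkn1b: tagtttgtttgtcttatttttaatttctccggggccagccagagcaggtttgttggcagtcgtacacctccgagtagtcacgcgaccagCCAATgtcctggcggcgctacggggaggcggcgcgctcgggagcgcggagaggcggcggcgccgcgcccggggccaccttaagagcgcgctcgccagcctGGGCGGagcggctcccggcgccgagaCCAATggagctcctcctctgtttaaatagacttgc

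Cdkn2b: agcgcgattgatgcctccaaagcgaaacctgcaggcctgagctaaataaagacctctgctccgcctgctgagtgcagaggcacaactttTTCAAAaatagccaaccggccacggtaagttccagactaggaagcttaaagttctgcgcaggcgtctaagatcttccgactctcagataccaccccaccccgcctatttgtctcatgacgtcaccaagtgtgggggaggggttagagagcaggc

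The Cdkn3 window lies at chr14:46760291-46760540 on the plus strand, the Cdkn1b window at chr6:134920151-134920400 on the plus strand, and the Cdkn2b window at chr4:89311040-89311282 on the minus strand. These motifs were searched on both strands: TTTGAA for the cell cycle homology region (CHR), CCAAT for the box of that name, GGGCGG for the GC box, TGANTCA for the AP-1 site, and for E2F the sites TTTCGCGC and, as the other form, TTTGGCGC. Cdkn3 held 1 CHR match 111 bases before the start, 3 CCAAT boxes at 149, 92 and 34 bases, and 1 GC box at 166 bases. Of 32851 RefSeq windows of the same kind, 16.0% held the CHR, 33.8% a CCAAT box, 5.55% both and 2.79% at least 3 CCAAT boxes. Cdkn1b held 2 CCAAT boxes at 161 and 35 bases and 1 GC box at 61 bases, a motif found in 32.7% of windows. Cdkn2b held 1 CHR match 161 bases before its RefSeq start, and the sequence shown stops 7 bases short of that start, where the GENCODE gene begins. No E2F or AP-1 letters were found in the windows of the 7 members that had one, and 0.256%, 0.417% and 6.75% of all windows held the first E2F site, the second E2F site and the AP-1 site. These are matches of letters, not measured binding.

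After filters and doublet removal 50502 cells were analysed, 6520 to 11032 per library, with median depths of 6032 to 10528 UMIs (unique molecular identifiers, here counted transcripts) per cell and 72634390 to 112370376 UMIs per library. Library pairs shared 7 to 47 cell barcodes. Cells were clustered without the members and named X-like from marker lists; the suffix is left out below. The classes are outer bulge (OB, 6065 cells), basal and suprabasal upper HF (uHF.B, 6042, and uHF.SB, 4903), suprabasal interfollicular epidermis (IFE.SB, a spinous cluster of 6224 with Krt1 and Krt10 and a granular cluster of 1470 with Lor and Lce genes), T cells (T, clusters of 2418 and 300), Langerhans cells (LC, 802), sebaceous gland (SG, 1892), melanocytes (MEL, 572) and dermal papilla and fibroblast cells (DP.FIB, 209). The largest cluster, 16776 cells, had 6 basal markers of the interfollicular epidermis higher than other cells, but its leading genes (Mmp3, Thbs2, Igfbp3 and Fcgbp first) held none of these and 1 marker of the upper HF, so it is called IFE cluster 0 by its number. SG held 13 cells at 0 h and was left out there, and DP.FIB reached 20 cells only at 4 d and 6 d. In this clustering a cluster with companion layer and bulge genes (2057 cells) and an inner root sheath cluster (772 cells) are not named as classes. When the follicle cells were clustered again, a cluster of 2207 cells with Flg, Krt1 and Krt10 was named IFE.SB. It had 224, 157, 381, 422, 496 and 527 cells from 0 h to 6 d. A uHF.B cluster of 2098 cells, led by Cyp26b1, Nrg1 and Fcgbp, had 518, 316, 227, 285, 299 and 453. The upper HF classes may thus hold epidermal cells, and the part of their makeup in the uHF values was not tested.

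Levels are given in CPM: the UMIs of a gene over all UMIs of the cells of that class in that library, scaled to a total of 1000000 UMIs. Where 6 values are given, they are those of the 0 h to 6 d libraries in the order of time. A cell was called cycling if, after thinning to 2000 UMIs, it had at least 2 UMIs of 10 proliferation genes, none of which is a member. The cycling share of IFE cluster 0 was 21.5%, 8.17%, 32.2%, 29.8%, 29.2% and 27.0%. In uHF.B it was 24%, 8.85%, 43.7%, 39.6%, 42.4% and 44.4%. In OB it was 10.7%, 2.74%, 9.57%, 36.1%, 53.9% and 25.5%. All 3 classes were lowest at 4 h. The share of T was 27.8% at 0 h and 40.0% at 4 h, from the cells with at least 2000 UMIs. These were 180 of 215 T cells at 0 h and 245 of 391 at 4 h. T cells called cycling gave 0 UMIs of Cdkn3 at both times, so the call may not mark dividing cells in T.

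Over all analysed cells, Ccnd2 was detected in 54.0% of cells (88689 UMIs), Ccnd1 in 48.2% (66702), Cdkn1b in 31.2% (23164), Cdkn2d in 28.8% (28554), Ccnd3 in 19.6% (12087), Cdkn2c in 11.4% (8265), Cdkn3 in 6.98% (6720), Cdkn2b in 5.80% (5160) and Cdkn1c in 2.13% (1400). Cdkn2a, which encodes p16INK4a and p19ARF, gave 33 UMIs in 31 cells, or 0.0614%. Its level was at most 0.289 CPM in the named keratinocyte classes, 0 to 3.77 CPM in T and 0 to 4.87 CPM in LC, and it was not seen in MEL, SG or DP.FIB. It is not followed further, since a change of Cdkn2a was not detectable at this depth. The members differed in where they were highest, and no class was highest for all of them.

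**Figure D1:**
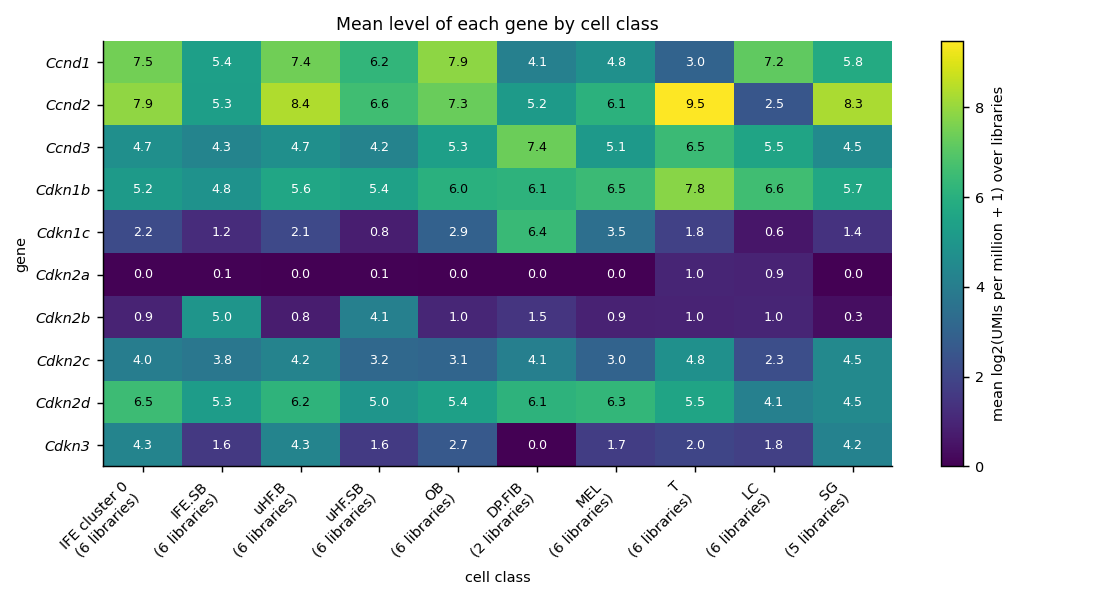
Mean level of each member (rows) in 10 classes (columns) as log2(CPM + 1), averaged over the libraries with at least 20 cells of the class (6, except 5 for SG and 2 for DP.FIB). Ccnd2 and Cdkn1b are highest in T, Ccnd3 and Cdkn1c in DP.FIB, Cdkn2b in IFE.SB, and Cdkn2a is near 0 throughout.

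Ccnd1 (chr7:144929931-144939925, minus strand) encodes the D-type cyclin best known as a target of mitogen signals. In uHF.B it was at 80.6, 549, 319, 141, 142 and 95.2 CPM. In IFE cluster 0 it was at 101, 367, 197, 175, 162 and 137 CPM. Both of these had their highest level at 4 h and came down after it, without reaching the 0 h level by 6 d. In OB it was at 89.4, 249, 356, 262, 349 and 226 CPM, so the highest value came at 16 h and the level at 4 d was close to it. IFE.SB held 16.4, 67.2, 40.9, 56.5, 61.5 and 24.9 CPM, and uHF.SB held 60.0, 112, 96.9, 75.0, 71.1 and 49.4 CPM. SG went from 81.1 CPM at 4 h and 128 at 16 h to 27.1 at 6 d. LC stayed between 106 and 179 CPM. In T, Ccnd1 was at 0 to 13.4 CPM, against 3.85 to 11.4 CPM that free RNA would give there, as judged from Krt5 and Krt14, 2 keratins T cells do not make. The T values are therefore near background, and the 0 at 0 h allows up to 6.34 CPM (95% Poisson limit). By the mean of log2(CPM + 1) over libraries OB came first, then IFE cluster 0, uHF.B and LC, and the ranges of these neighbours over libraries overlapped.

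At 4 h Ccnd1 in uHF.B was 6.80 times its 0 h level (95% counting interval 6.21 to 7.46), in IFE.SB 4.09 times (3.65 to 4.58), in IFE cluster 0 3.64 times (3.49 to 3.80), in OB 2.79 times (2.38 to 3.27) and in uHF.SB 1.87 times (1.56 to 2.25). In LC the ratio was 0.969 (0.627 to 1.54). The cycling share was lowest at that time, so the 2 states are also given apart. Among non-cycling uHF.B cells the level went from 91.2 to 545 CPM, 5.97 times (5.41 to 6.61), and among cycling uHF.B cells from 53.4 to 574 CPM, 10.8 times (8.59 to 13.5). After thinning every cell to 2000 UMIs, the share of uHF.B cells with a Ccnd1 UMI was 14.7% at 0 h and 60.0% at 4 h, and that of IFE cluster 0 was 18.4% and 48.1%; in T, where the gene is near background, it was 0% and 2.04%. Between 4 h and 16 h Ccnd1 in OB went the other way from uHF.B and IFE cluster 0, to 1.43 times (1.31 to 1.56) against 0.582 times in uHF.B and 0.538 times in IFE cluster 0.

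**Figure D2:**
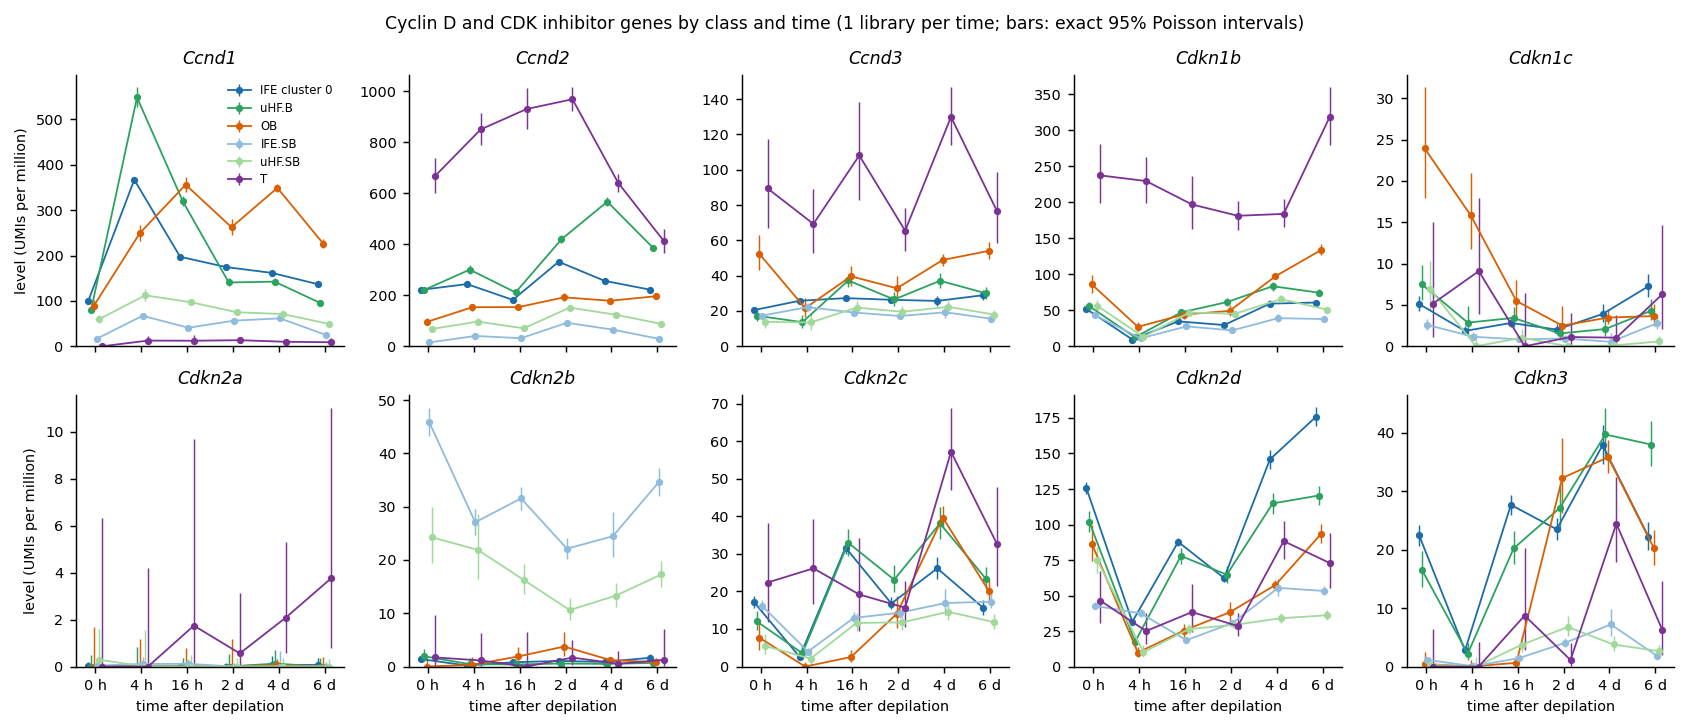
Level of each member in CPM (vertical axis, 1 panel per gene with its own scale) at the 6 times post depilation (horizontal axis, evenly spaced) in 6 classes, 1 library per point, with exact 95% Poisson intervals. Ccnd1 is highest at 4 h in uHF.B (549 CPM) and IFE cluster 0, while Cdkn1b, Cdkn2c, Cdkn2d and Cdkn3 are lowest there at 4 h.

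Ccnd2 (chr6:127125162-127152193, minus strand) is the D-type cyclin of many lymphocytes. T had the highest mean level of the 10 classes, with 667, 851, 931, 969, 641 and 411 CPM, where free RNA would give at most 14.8 CPM. The larger T cluster, led by Trdc, held 484 to 1026 CPM and the smaller one, led by Gzmc, Ltb and Icos, 154 to 438 CPM. T was above uHF.B in 6 of 6 libraries, although the ranges over libraries overlapped. In uHF.B the level was 220, 301, 211, 420, 567 and 386 CPM, in IFE cluster 0 221, 244, 182, 332, 257 and 222 CPM, and in OB 95.3, 153, 154, 192, 179 and 196 CPM. The uHF.B cells were highest at 4 d, not at 4 h, and IFE cluster 0 at 2 d. LC held 0 to 50.1 CPM from at most 15 UMIs, where free RNA would give 4.30 to 14.0 CPM, with none at 16 h and 6 d. The inner root sheath and matrix cluster, led by Krt25, Krt35 and Krt71, held 752 CPM at 4 d (599 cells) and 770 CPM at 6 d (134 cells).

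Ccnd3 (chr17:47505051-47599691, plus strand), a D-type cyclin often seen in differentiating and immune cells, was highest in DP.FIB, with 132 CPM at 4 d and 205 CPM at 6 d, above T in both of these libraries. T held 65.4 to 130 CPM and was above LC (18.4 to 97.3 CPM) in 6 of 6 libraries. Keratinocyte classes held less: 20.5 to 28.9 CPM in IFE cluster 0, 13.6 to 37.3 in uHF.B, 15.6 to 22.2 in IFE.SB and 13.5 to 22.3 in uHF.SB. OB held 52.4, 21.6, 39.6, 32.8, 48.9 and 54.0 CPM. Its 4 h value was 0.412 times the 0 h value (0.301 to 0.561), whereas Ccnd1 in the same cells was higher at 4 h.

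Cdkn1b (chr6:134920401-134925513, plus strand) encodes p27Kip1, a protein that holds resting cells out of the cycle and is controlled mostly by degradation, which transcripts do not show. In uHF.B it was at 55.6, 12.5, 47.0, 61.3, 83.4 and 74.5 CPM. In IFE cluster 0 it was at 51.7, 9.40, 34.6, 29.5, 59.2 and 60.7 CPM. In OB it was at 85.8, 27.0, 44.0, 49.1, 97.3 and 134 CPM. These 3 classes were lowest at 4 h and above the 0 h level at 4 d and 6 d. The 4 h level was also low in the suprabasal classes, with 43.4 CPM at 0 h and 11 at 4 h in IFE.SB and 56.0 and 13 in uHF.SB, and SG held 19.3 CPM at 4 h against 47.4 to 88.3 later. T did not: it held 237, 229, 197, 181, 184 and 318 CPM, and the ratio of 4 h to 0 h was 0.967 (0.775 to 1.21). T was above LC (67.8 to 132 CPM) in 6 of 6 libraries with ranges that did not overlap. Free RNA would give T 0.707 CPM at 4 h.

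At 4 h Cdkn1b was 5.50 times lower than at 0 h in IFE cluster 0 (ratio 0.182, 0.160 to 0.206), 4.44 times lower in uHF.B (0.225, 0.168 to 0.298), 4.29 times lower in uHF.SB, 3.96 times lower in IFE.SB and 3.18 times lower in OB (0.315, 0.241 to 0.408). In LC the ratio was 0.516 (0.319 to 0.849). The same ratio was also taken in non-cycling cells alone. It was 0.142 in uHF.B (0.0924 to 0.210, from 49.3 to 7.0 CPM), 0.193 in IFE cluster 0 and 0.306 in OB. In the 56 cycling uHF.B cells of 4 h the level was 55.3 CPM, from 29 UMIs, against 72.1 CPM at 0 h (ratio 0.768, 0.496 to 1.15). In uHF.B, then, the counting interval of the cycling cells held a ratio of 1, and that of the non-cycling cells did not. This contrast is given for uHF.B only. In IFE cluster 0 the ratio was close in all cells (0.182) and in non-cycling cells (0.193). Most of its cells at 4 h were non-cycling, so these ratios say little about its cycling cells.

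Cdkn1c (chr7:143458339-143461050, minus strand), the gene of p57Kip2, is imprinted and marks resting or differentiating cells in several tissues. DP.FIB held 63.9 CPM at 4 d and 111 at 6 d, above MEL in both libraries. In OB it was at 23.9, 15.9, 5.48, 2.5, 3.47 and 3.65 CPM. The 0 h library was above every later one, and the Krt24 cluster held 25.5 CPM at 0 h (40 UMIs) and 7.82 at 4 h (9 UMIs). At 4 h 31 of the 50 UMIs came from a cluster with Cpa4 that made up 34.2% of OB cells at that time (36.3 CPM) and was not seen at 0 h. IFE cluster 0 held 1.85 to 7.26 CPM and uHF.B 1.55 to 7.49 CPM.

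Cdkn2d (chr9:21288410-21291407, minus strand) encodes p19INK4d. In uHF.B it was at 102, 17.4, 77.9, 64.7, 115 and 120 CPM, in IFE cluster 0 at 125, 31.6, 87.7, 62.3, 146 and 176 CPM, and in OB at 86.2, 9.84, 25.3, 38.2, 57.5 and 93.5 CPM. All 3 were lowest at 4 h and, in uHF.B and IFE cluster 0, above the 0 h level at 4 d and 6 d. At 4 h it was 8.76 times lower than at 0 h in OB, 7.40 times lower in uHF.SB, 5.87 times lower in uHF.B and 3.97 times lower in IFE cluster 0. Without cycling cells it was 10.1 times lower in uHF.B (77.9 to 7.75 CPM) and 4.78 times lower in IFE cluster 0. IFE.SB stood apart, with a ratio of 0.876 (0.794 to 0.965), and its layers went different ways. The spinous cluster held 70.0 CPM at 0 h and 30.4 at 4 h, and the granular cluster 15.8 and 47.7 CPM.

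Cdkn2c (chr4:109660876-109667189, minus strand) encodes p18INK4c and Cdkn3 (chr14:46760541-46771669, plus strand) the phosphatase named above. In IFE cluster 0 and uHF.B they were lowest at 4 h, as the cycling share was. In IFE cluster 0 Cdkn2c was at 17.2, 2.56, 31.7, 16.8, 26.1 and 15.6 CPM, and Cdkn3 at 22.4, 2.75, 27.6, 23.5, 37.8 and 22.2 CPM. In uHF.B Cdkn2c was at 12.1, 3.52, 32.9, 23.1, 38.1 and 23.4 CPM and Cdkn3 at 16.5, 2.20, 20.2, 27.1, 39.7 and 37.9 CPM. OB gave no UMI of either gene in 666 cells at 4 h, which allows up to 0.953 CPM (3 UMIs), and 39.6 and 35.8 CPM at 4 d. The 4 h ratio of Cdkn3 in IFE cluster 0 was 0.123 in all cells and 0.427 (0.175 to 0.988) in non-cycling cells. The ratio of Cdkn2c there was 0.148 (0.116 to 0.188) and 0.125, so Cdkn2c was lower at 4 h in non-cycling cells too, at levels of 5.72 and 0.716 CPM (20 UMIs at 4 h).

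Cdkn2b (chr4:89306299-89311039, minus strand, next to Cdkn2a at chr4:89274471-89294653) encodes p15INK4b, known as a target of TGF-beta signals. Among the keratinocyte classes it was high in the suprabasal ones. IFE.SB held 45.8, 27.1, 31.6, 22.1, 24.5 and 34.6 CPM, and uHF.SB 24.2, 21.9, 16.2, 10.6, 13.3 and 17.3 CPM. The granular cluster held 39.1 to 73.1 CPM and the spinous cluster 10.3 to 24.8 CPM. IFE cluster 0 held 0.192 to 1.65 CPM, uHF.B 0.392 to 1.94 and OB 0 to 3.75. Within the HF, a follicle cluster with Sncg, of which at most 15 cells in a library belonged to OB, held 20.8 to 71.9 CPM, and the inner root sheath and matrix cluster 19.2 CPM at 4 d and 20.9 at 6 d.

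Read as counts, 1 of 6 members with a mean of at least 10 CPM was at least 2-fold higher at 4 h than at 0 h in IFE cluster 0 (Ccnd1), where 19.3% of all genes with that mean were, and 3 of 6 were at least 2-fold lower (Cdkn1b, Cdkn2d and Cdkn3), against 14.9%. In uHF.B Ccnd1 was higher, 1 of 5 (background 21.3%), and Cdkn1b and Cdkn2d lower, 2 of 5 (15.0%). In OB Ccnd1 was higher, 1 of 6 (17.9%), and Ccnd3, Cdkn1b and Cdkn2d lower, 3 of 6 (16.2%). IFE.SB had Ccnd1 and Ccnd2 higher, 2 of 7 (17.6%), and Cdkn1b and Cdkn2c lower, 2 of 7 (9.72%). In uHF.SB 0 of 6 were higher (19.7%) and Cdkn1b and Cdkn2d were lower, 2 of 6 (11.4%). T had 0 of 5 in either direction (19.6% and 6.59%), and LC had 0 of 5 higher (20.2%) and Ccnd2 and Ccnd3 lower, 2 of 5 (13.9%). The count of higher members was near the background in these classes, and these shares have no replicate check. In non-cycling cells Ccnd1 stayed higher and Cdkn1b and Cdkn2d lower in IFE cluster 0 (21.6% and 14.1%), uHF.B (23.3% and 14.4%) and OB (18.3% and 16.3%, with Ccnd3 lower too).

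**Figure D3:**
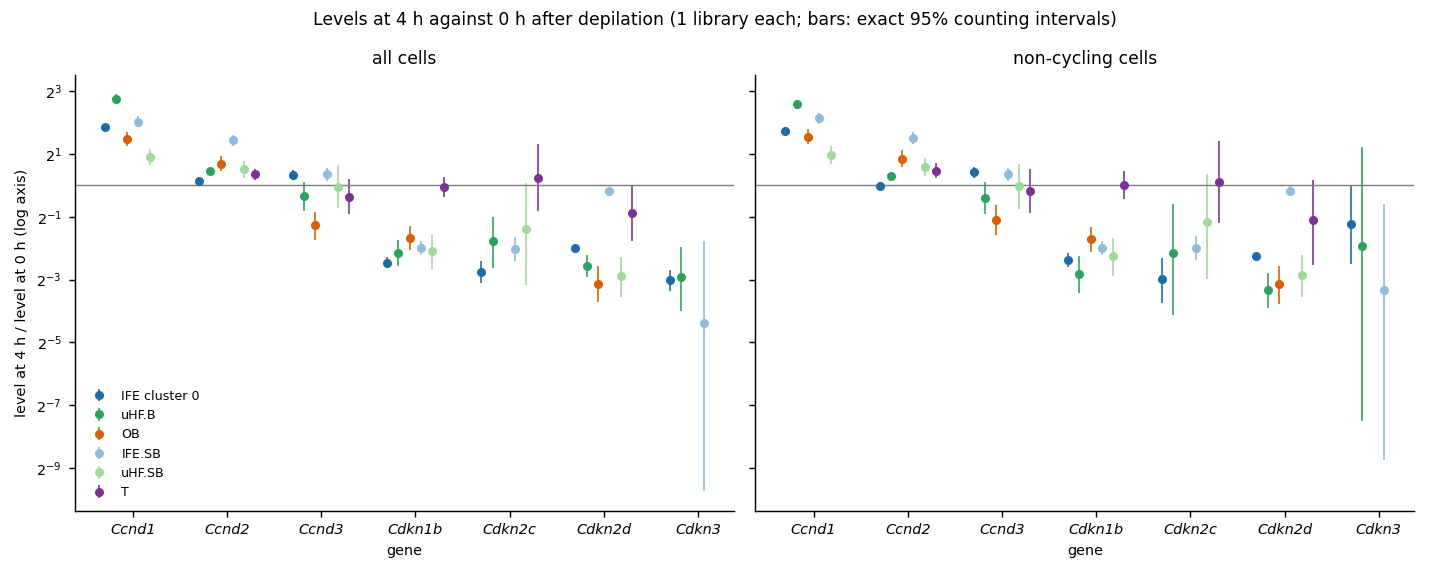
Ratio of the level at 4 h to that at 0 h (log axis, 1 marks no difference) for 7 members in 6 classes, in all cells and in non-cycling cells, with 95% counting intervals from 1 library per time. Ccnd1 lies above 1 in the 5 keratinocyte classes and Cdkn1b below 1 (0.142 in non-cycling uHF.B cells), while Cdkn1b in T is at 0.967.

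To ask how the members differ between cycling and non-cycling cells, both were summed within each class and library and compared with edgeR's quasi-likelihood test with the library as block, so the 6 libraries are the replicates. Cells were sorted into the 2 states by other genes of the same cells, so members that follow those genes are higher in part through the sorting. In uHF.B 6 of 8 members tested passed an adjusted p of 0.05, where 31.4% of all genes did. Cdkn3 was higher in cycling cells by 4.93 (log2, adjusted p = 6.15e-24), Cdkn2c by 2.42 (1.27e-17), Cdkn2d by 1.62 (0.00806) and Cdkn1b by 0.68 (0.0115). Ccnd1 was lower by a log2 of -0.52 (9.46e-06) and Ccnd2 by -0.50 (7.09e-07), while Ccnd3 was at 0.18 (0.179) and Cdkn1c at 0.56 (0.122).

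Differences by library are in log2(CPM + 1) with CPM scaled by the TMM factors of the fit, so they can depart from ratios of the levels given above. That of Ccnd1 in uHF.B was -0.89, -0.26, -0.31, -0.69, -0.79 and -0.51, and that of Ccnd2 -0.84, -0.56, -0.29, -0.56, -0.46 and -0.51. Both were lower in cycling cells in 6 of 6 libraries. That of Cdkn2d was 0.95, 3.09, 2.27, 1.94, 1.46 and 1.15. That of Cdkn1b was 0.41, 2.5, 0.71, 0.44, 0.63 and 0.68, higher in 6 of 6 libraries with the 4 h library far from the others. Without the 16 h library the Cdkn1b difference was 0.65 (adjusted p = 0.0578) and without the 6 d library 0.68 (0.0592), so its call rests on these libraries. Cdkn1c passed without the 4 d library (0.75, adjusted p = 0.0471).

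In IFE cluster 0 7 of 9 members tested passed (43.0% of all genes). Cdkn3 was higher by 5.28 (edgeR adjusted p = 0.000136), Cdkn2c by 2.99 (1.41e-05), Cdkn2d by 1.73 (0.00835), Cdkn1c by 1.64 (9.81e-06) and Cdkn1b by 0.86 (1.38e-08). Ccnd2 was lower by a log2 of -1.15 (5.86e-07) and Ccnd1 by -0.61 (3.89e-06). The order of D cyclins differed from uHF.B in size only: both were lower in cycling cells in 6 of 6 libraries, Ccnd2 by -1.39 to -0.68 and Ccnd1 by -0.80 to -0.27. Ccnd3 was at 0.17 (adjusted p = 0.0951) and passed without the 4 h library (0.25, 0.00293), and Cdkn2b was at -0.12 (0.763).

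In OB 3 of 8 members passed (21.1% of all genes): Cdkn3 at 3.95 (edgeR adjusted p = 2.58e-11), Cdkn2c at 2.43 (2.50e-10) and Cdkn2d at 0.97 (0.00543). Ccnd1 was at 0.23 (0.172), with differences of 0.25, 0.11, 0.17, 0.42, 0.12 and 0.32 in the 6 libraries, all above 0, where all 6 were below 0 in uHF.B and IFE cluster 0. The 4 h library of OB says little about cycling. Its differences of the cell cycle genes Cdk1 and Ccnb1 were -0.47 and 0, though each was higher in cycling cells in 5 of 6 libraries. Ccnd2 was at -0.34 (0.448) and passed without the 0 h library (-0.55, adjusted p = 0.0232), and Cdkn1b was at 0.0059 (0.985). The Cdkn2d call was lost when classes came from a clustering at doubled resolution (1.04, adjusted p = 0.0755) and with a limit of 1 cycling UMI (0.71, 0.0623), Ccnd2 passed with a limit of 4 (-1.01, 0.00417), and Ccnd1 passed in DESeq2 (0.26, 0.0394). Whether OB differs from uHF.B was tested directly: for that difference of differences 0 of 8 members and 1 of 11886 genes passed in edgeR (0.00841%), 784 genes had an unadjusted p below 0.05, and DESeq2 called 2 genes. The edgeR fit used the same library block for both classes, so it did not pair the cycling and non-cycling sums within each class. In it the difference of Ccnd1 between the classes was 0.82 (edgeR adjusted p = 0.689). With the library within each class as block, a choice made after the data were seen, it was 0.78 (0.00127). OB had 17 cycling cells at 4 h, and its makeup changed over time: the Krt24 cluster was 72.0% of OB cells at 0 h and 34.2% at 4 h, and a Col14a1 cluster 58.4% at 4 d. The part of this makeup in the OB values was not tested.

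**Figure D4:**
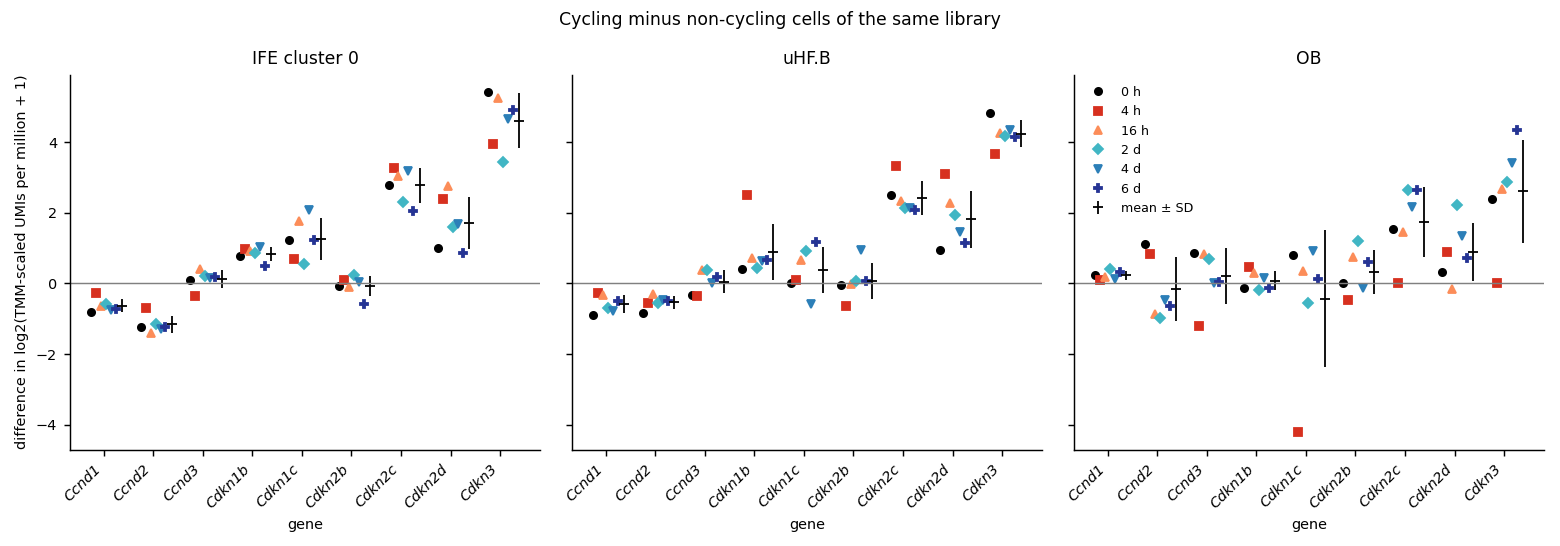
Difference in log2(CPM + 1), with TMM-scaled CPM, between cycling and non-cycling cells (vertical axis) for the members in 3 classes, 1 point per library with mean ± SD over 6 libraries. Ccnd1 and Ccnd2 lie below 0 in all 6 libraries of IFE cluster 0 and uHF.B, Ccnd1 lies above 0 in all 6 of OB, and Cdkn3 and Cdkn2c lie highest. In OB at 4 h, with 17 cycling cells, Cdkn3 and Cdkn2c are at 0.

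IFE.SB was compared with IFE cluster 0, and uHF.SB with uHF.B, in the same way. From IFE cluster 0 to IFE.SB 7 of 9 members passed (63.3% of all genes), and from uHF.B to uHF.SB 8 of 9 (59.2%), so a call alone says little here and the sizes matter more. Cdkn2b was higher by 5.26 in IFE.SB (edgeR adjusted p = 5.40e-07) and by 4.66 in uHF.SB (3.52e-08), and no other member was called higher in either. In log2(CPM + 1) with TMM-scaled CPM its difference was 4.52, 4.50, 4.27, 3.69, 3.77 and 4.05 from 0 h to 6 d for IFE.SB (4.13 ± 0.36, SD, n = 6 libraries) and 3.17, 3.97, 3.61, 3.03, 3.34 and 3.70 for uHF.SB (3.47 ± 0.35). The spread over the 6 libraries was small beside the difference on this scale, but the pseudocount of 1 CPM sets part of that spread. The compared classes lay close to it, with 0.192 to 1.65 CPM in IFE cluster 0 and 0.392 to 1.94 CPM in uHF.B. These levels came from 137 and 35 UMIs over the 6 libraries.

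All 3 D cyclins were lower in both suprabasal classes. Ccnd2 was lower by a log2 of -2.41 in IFE.SB (edgeR adjusted p = 4.44e-05) and -1.64 in uHF.SB (1.23e-07), and Ccnd1 by -1.94 (1.71e-05) and -1.07 (0.00850), each in 6 of 6 libraries. The difference of Ccnd1 in uHF.SB ranged from -0.36 at 0 h to -2.26 at 4 h. Ccnd3 was lower by -0.29 (0.0130) and -0.40 (0.00497); in IFE.SB it did not pass without the 2 d library (-0.23, adjusted p = 0.0714) or the 6 d library (-0.20, 0.0733). Cdkn1b did not pass in either class, at -0.15 (0.178) and -0.09 (0.398), and its differences by library lay between -0.48 and 0.08 on the TMM-scaled log2(CPM + 1) scale.

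The cycling share was 4.44% to 12.2% in IFE.SB and 4.21% to 11.6% in uHF.SB, below that of IFE cluster 0 and uHF.B in 6 of 6 libraries, so the other members are given with non-cycling cells alone too. Cdkn3 was lower by a log2 of -3.22 in IFE.SB (edgeR adjusted p = 3.12e-05) and -2.85 in uHF.SB (3.64e-05), and among non-cycling cells by -0.66 (0.0431) in IFE.SB, while it was at -0.72 (0.149) in uHF.SB and did not pass. Cdkn2d was lower by -1.10 in IFE.SB (edgeR adjusted p = 0.00587) and -1.13 in uHF.SB (0.000160), and Cdkn1c by -1.10 (0.00132) and -1.79 (0.0153, and -1.57 with 0.0609 without the 6 d library). With non-cycling cells alone, the IFE.SB differences of Cdkn2d and Cdkn1c were -0.40 (0.181) and -0.45 (0.0911) and did not pass, and in uHF.SB they were -0.34 (0.0488) and -1.39 (0.0491). Cdkn2c was at -0.08 in IFE.SB (0.754) and lower by -1.01 in uHF.SB (3.30e-05). Between non-cycling cells alone it was higher by 1.48 in IFE.SB (3.61e-05) and at 0.33 in uHF.SB (0.119), so the direction of Cdkn2c depends on which cells are compared. Cdkn1b in uHF.SB was then at 0.26 (0.0490). The granular cluster held 8.06 to 29.2 CPM of Cdkn2c and the spinous cluster 1.20 to 11.6 CPM.

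The difference between these 2 comparisons, upper HF against epidermis, was tested too, and 1 of 9 members passed (10.7% of all genes). The edgeR fit used the same library block for the upper HF and the epidermis. It therefore did not pair the suprabasal and compared sums within each of them. The uHF classes may also hold epidermal cells, as given above. Cdkn2c was lower by a log2 of -0.90 in the upper HF relative to the epidermis (edgeR adjusted p = 0.0446). The call was lost without the 0 h, 4 h, 2 d, 4 d or 6 d library, with values of -0.94 to -0.83 and adjusted p of 0.0762 to 0.138.

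**Figure D5:**
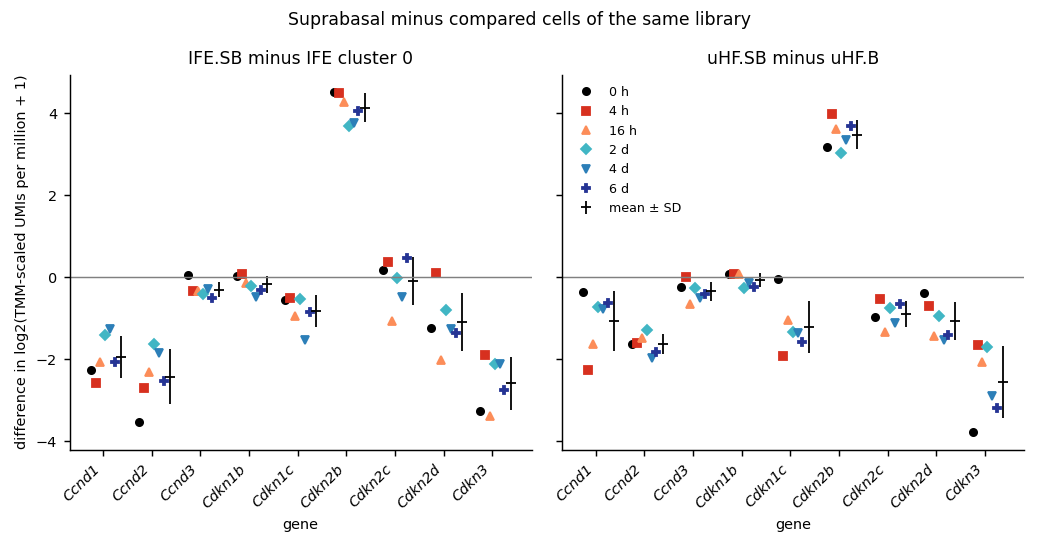
Difference in log2(CPM + 1), with TMM-scaled CPM (vertical axis), for IFE.SB minus IFE cluster 0 and uHF.SB minus uHF.B, 1 point per library with mean ± SD over 6 libraries. Cdkn2b lies above 3 in every library of both, Ccnd1, Ccnd2 and Cdkn3 lie below 0, and Cdkn1b lies around 0.

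OB was compared with uHF.B, the neighbouring basal keratinocytes of the HF, and 2 of 9 members passed (24.2% of all genes). Ccnd2 was lower in OB by a log2 of -1.26 (edgeR adjusted p = 0.000552), with differences of -1.46, -1.07, -0.60, -1.35, -1.88 and -1.26 in the 6 libraries. Cdkn2d was lower by -0.99 (0.00214), also in 6 of 6 libraries; with non-cycling cells alone it was at -0.45 (0.124). Ccnd1 was at 0.26 (0.558), from -1.24 at 4 h to 1.06 at 4 d and -0.11 at 0 h, where its level without TMM scaling was higher in OB (89.4 against 80.6 CPM). Ccnd3 was at 0.44 (0.107), Cdkn2c at -1.20 (0.108) and Cdkn3 at -1.50 (0.118). The last 2 were called by DESeq2, at -1.42 (0.0142) and -2.5 (0.0243). With non-cycling cells alone Cdkn3 was at -0.24 (edgeR adjusted p = 0.809), and Cdkn1c passed at 1.09 (0.0467).

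The follicle clusters named from bulge markers did not hold the members evenly. Those with Tgfb2, Krt24 and Cpa4 made up part of OB, while at most 15 cells of the Sncg cluster in a library did. Ccnd1 in the cluster with Tgfb2 was at 185, 664, 738, 309, 235 and 254 CPM, from 56 to 191 cells. In the Krt24 cluster it was at 58.0, 237, 262, 112, 252 and 154 CPM, and in the Sncg cluster at 24.4, 45.8, 110, 104, 109 and 106 CPM. All 3 clusters were higher at 4 h and 16 h than at 0 h, with the Tgfb2 cluster above the Krt24 cluster in 5 of 6 libraries. The Cpa4 cluster held 65.6 CPM at 4 h (229 cells) and 370 CPM at 16 h (142 cells), and gave 56 of the Ccnd1 UMIs of the 4 h bulge, of which OB as a whole had 785. In the Col14a1 cluster Ccnd1 was lowest at 0 h, at 114 CPM, and highest at 4 h, at 395 CPM. Cdkn1b in the Krt24 cluster was at 90.5, 43.4, 58.4, 54.5, 129 and 153 CPM, in the Sncg cluster at 183, 35.4, 112, 137, 194 and 170 CPM, and in the Cpa4 cluster at 11.7 and 19.3 CPM at 4 h and 16 h. The Krt24 and Sncg clusters were both lowest at 4 h. The part of the makeup of OB in its 4 h level was not tested.

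Over the time course as a whole, a spline of hours in edgeR left 2 residual degrees of freedom, and 0 members and 0.0% of genes passed in OB, uHF.B, uHF.SB, IFE cluster 0 and IFE.SB, where 996, 232, 480, 78 and 329 genes had an unadjusted p below 0.05. On simulated data of this size the same fit recovered 0 of 100 genes changed by a log2 of 2, so these counts do not show that the members kept their level. On a log2(hours + 1) scale 5 members passed in OB, where 11.5% of genes did: Cdkn3 (edgeR adjusted p = 0.000112), Cdkn1c (0.00344), Cdkn2c (0.00457), Cdkn2d (0.0242) and Cdkn1b (0.0492). On a rank scale Cdkn3, Cdkn1c and Cdkn2c passed (7.57% of genes). Cdkn1c had the falling trend and Cdkn2c and Cdkn3 the rising one on both scales.

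A list of 38 other genes of the same pathway (CDKs, retinoblastoma and E2F proteins, other cyclins, and their regulators) gave the setting. Between cycling and non-cycling cells 23 were higher and 3 lower of 37 tested in uHF.B (31.4% of all genes were called). The counts were 23 and 5 of 37 in IFE cluster 0 (43.0%), and 24 and 3 of 38 in OB (21.1%). The median log2 difference in uHF.B was 0.63 for the list, 0.62 for the members and -0.06 for all genes. Since the cells were sorted by proliferation genes, higher cell cycle genes are in part an outcome of the sorting. The mitotic genes Cdc25c at 6.01 and Ccnb1 at 5.41 were highest in uHF.B. Myc, a growth factor response gene, was lower in cycling cells by a log2 of -0.78 in uHF.B (edgeR adjusted p = 3.49e-10), and Cdkn1a, the p21Cip1 gene, by -0.35 (6.74e-05), so these 2 lay with Ccnd1 and Ccnd2 on the low side. Against IFE cluster 0, 7 were higher and 28 lower of 38 in IFE.SB (63.3% of all genes), and against uHF.B 5 and 26 of 38 in uHF.SB (59.2%). Cdkn1a was higher there by 1.29 (1.71e-05) and 1.87 (0.000862) and E2f2 by 1.30 and 1.66, while the mitotic kinase Cdk1 was at -3.83 and -3.54. Between OB and uHF.B 3 were higher and 5 lower of 38, a share near that of all genes (24.2%), and Mycn was higher in OB by 2.87 (0.00816).

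Genes with the pattern most like each member were sought over 55 sums, 1 per class and library, among 8477 genes. The sums share libraries, depths and classes, so the correlations are a description. Cdkn3 was most like the mitotic genes Bub1b, Ccnb1 and Nusap1, with Pearson r of 0.96 each; Nusap1 is among the genes that defined cycling cells. Cdkn1b was most like 4833420G17Rik (0.92), Izumo4 (0.91) and Auh (0.89), Ccnd3 like Limd2 (0.86), Ccnd2 like Lbr (0.82), Ccnd1 like Map3k20 (0.78), and Cdkn2c and Cdkn2d like Mpnd and Abcc5 (0.72 each). Cdkn1c, Cdkn2a and Cdkn2b had means under 10 CPM and were not matched.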

How the data were processed

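Cells of dorsal skin were measured by 10x Genomics 3′ single-cell RNA-seq in 6 libraries, 1 per time post depilation, grouped by the labels. The authors aligned reads and counted UMIs with Cell Ranger 6.1.2 (build mm10 per the submitters' processing notes) and deposited filtered matrices of raw counts per gene and barcode without normalization; the annotation release is not given in the sources used here. 

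Of 61031 barcodes, 55177 had 500 to 7000 genes and at most 10% mitochondrial UMIs. The cells with the highest Scrublet scores (scanpy 1.11.5, Python 3.11.15), at 0.8% per 1000 barcodes, 4675 in all, were removed as doublets. Libraries were joined by reciprocal principal components in Seurat 5.3.0 (2000 variable genes, 30 components) and clustered at resolution 0.2, and follicle cells (19839) at 0.4. Members, pathway genes, cycling markers and genes correlated above 0.2 with the markers, 481 in all, were kept out, and no member was a variable gene. A name needed 3 markers higher by 0.5 (log2) and detected in 10% of the cluster's cells; the names were rebuilt here and can differ from the study's.

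Counts were summed per class and library with at least 20 cells (10 for a cycling or non-cycling sum) and compared in edgeR 4.0.16 (R 4.3.3) with TMM factors, filterByExpr, a robust quasi-likelihood fit and the library as block, or a spline of hours with 3 degrees of freedom for the time course. P-values were adjusted by Benjamini-Hochberg over every gene of the fit, and a gene was called at 0.05. A pseudocount of 1 CPM was used for per-library log2 differences of TMM-scaled CPM, which understates low genes. Each sum is of one pool of mice, so the p-values measure the spread between the 6 libraries of different times. Ratios have conditional binomial intervals, levels exact Poisson intervals and shares exact Clopper-Pearson intervals at 95% (scipy 1.17.1), which cover counting error only. The cycling fit was tested on simulated data and recovered 100 of 100 genes changed by a log2 of 1 in uHF.B, with 15 false calls (11002 genes). The IFE.SB fit recovered 91 of 100, with 10 false calls (12906 genes). The fit of the difference between compartments recovered 73 of 100, with 11 false calls (12689 genes). Data were drawn from the design of each fit, so they do not check that design. Only genes with higher counts were changed, so the shares do not cover low members such as Cdkn1c and Cdkn2b. Alternatives were RLE factors, no count filter, no robust option, DESeq2 1.42.0, other cycling limits, doubled resolution or doublets, non-cycling cells only, other time scales and each library left out. For the differences of differences, the library within class as block was a further alternative. Every member is named in the text; of the 38 pathway genes, those with the largest called differences in each direction are named. Members, lists and tests were chosen with earlier results of these data known. Promoters are from RefSeq and gene positions from the GENCODE annotation, both on GRCm38; 7 of 10 members had a promoter window.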

Additional observations from a re-analysis of the deposited data

Results flagged for a closer look

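Of 76 sets of 6 library differences, 4 had a library far from the others, where about 1 in 20 would be flagged among independent sets. The sets share cells and libraries, so they are not independent, and the cause of the flags was not tested. All 4 are the 4 h library in the comparison of cycling and non-cycling cells. In uHF.B the Cdkn1b difference was 2.5 (log2) at 4 h against 0.41 to 0.71 in the others, from 29 UMIs in cycling and 28 in non-cycling cells. In uHF.B the Cdkn2c difference was 3.34 at 4 h against 2.08 to 2.51, from 12 and 4 UMIs. In IFE cluster 0 the Ccnd2 difference was -0.68 at 4 h against -1.39 to -1.14. In OB the Cdkn1c difference was -4.22 at 4 h against -0.55 to 0.91, from 0 UMIs in 17 cycling cells, so its size depends on the pseudocount.

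The suprabasal difference of Cdkn2c differed between the upper HF and the epidermis by a log2 of -0.90 (edgeR adjusted p = 0.0446), with suprabasal cells lower in 6 of 6 libraries of the upper HF and in 3 of 6 of the epidermis. The fit did not pair the layers within the upper HF or the epidermis.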

How the results depend on the processing

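Of the counts and levels under an alternative, 281 stayed within their limits, 47 gave more calls, 24 gave fewer and 9 moved; of the member results, 887 kept their direction and call, 17 gained a call, 18 lost one and 23 changed sign. With non-cycling cells only, the log2 differences of opposite sign were Cdkn2c at 1.48 and Cdkn1b at 0.15 in IFE.SB, Cdkn1b at 0.26 and Cdkn2c at 0.33 in uHF.SB, Ccnd1 at -0.0046 between OB and uHF.B, and Cdkn2d at 0.074 between compartments. In the cycling comparisons they were Cdkn2b in IFE cluster 0 at 0.0096 (1 UMI) and Ccnd2 in OB at 0.0094 (doubled resolution), and Cdkn1b in OB at -0.049 (doubled doublets) and -0.092 (1 UMI). For OB against uHF.B in cycling they were Ccnd2 at -0.33 (4 UMIs), Cdkn2c at -0.15 (DESeq2) and -0.38 (1 UMI) and Cdkn3 at 0.54 (doubled resolution), and Ccnd1 between OB and uHF.B was at -0.025 at doubled resolution. Values ranged across 0 when 1 library was left out for Cdkn2b in cycling IFE cluster 0 (-0.28 to 0.050, above 0 without 6 d), Cdkn1b in cycling OB (-0.029 to 0.067, below 0 without 16 h or 4 d), Cdkn2c in IFE.SB (-0.17 to 0.15, above 0 without 16 h or 4 d), Ccnd2 (-0.12 to 0.39, below 0 without 0 h) and Cdkn2c (-0.18 to 0.21, below 0 without 6 d) for OB against uHF.B in cycling, and Cdkn2d between compartments (-0.28 to 0.20, above 0 without 4 h). Without a library, no value of changed sign was called. The causes were not tested.

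In OB, cycling against non-cycling cells called 2363 genes, 1328 with DESeq2, 498 at doubled resolution, 929 with a limit of 1 cycling UMI and 982 to 2604 without 1 library. OB against uHF.B called 4 members with DESeq2 and 5 at doubled resolution in place of 2, and 2015 to 2889 genes in place of 3053 without 1 library. The cycling difference between OB and uHF.B called 1 gene, 9 without a count filter, 2 with DESeq2, 0 with a limit of 1 UMI, 0 with 4 UMIs, 146 genes and 1 member (Ccnd1) with the library within class as block, and 0 to 1 without 1 library. The suprabasal difference called 1369 genes, 657 to 1741 without 1 library, and 1 member, 0 without a count filter, 0 with doubled doublets and 0 to 1 without 1 library.

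For the time course of OB, 0 genes were called on hours, 1299 with 5 members on log2(hours + 1), 859 with 3 members on ranks, 81 with 1 member without a filter, and 1 to 2287 with 0 to 5 members without 1 library. The 5 members (Cdkn1b, Cdkn1c, Cdkn2c, Cdkn2d and Cdkn3) were called without the 0 h library, Cdkn1c and Cdkn3 without 4 h, and Cdkn3 without 2 d, 4 d or 6 d. uHF.B gave 1 gene on log2(hours + 1) and 0 to 64 without 1 library; uHF.SB gave 131, 7 on ranks, 2 without a filter and 7 to 398 without 1 library; IFE cluster 0 gave 0 to 12 without 1 library; IFE.SB gave 5, 3 on ranks, 0 to 557 without 1 library, and 3 members (Ccnd1, Ccnd2 and Cdkn3) without the 4 h library.

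Without thinning, the share of uHF.B cells with a UMI at 0 h and 4 h was 38.2% and 84.7% for Ccnd1 (thinned 14.7% and 60.0%), 31.3% and 6.80% for Cdkn1b (11.1% and 2.21%) and 41.6% and 7.88% for Cdkn2d (16.2% and 2.69%). With all cells in place of non-cycling ones the 4 h ratios in uHF.B were 6.80, 0.225 and 0.170. No paired analysis was possible because each time has 1 library; the library itself is the block of the comparisons within libraries.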

Other observations

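Other skin cells held the members at levels not compared above, given here as values of single libraries. Melanocytes held 57.6 to 131 CPM of Cdkn2d and 40.1 to 137 CPM of Cdkn1b over the 6 libraries. Their Ccnd2 was at 26.1, 37.4 and 19.1 CPM at 0 h, 4 h and 16 h, from 2 to 6 UMIs each, where free RNA would give 34.8, 6.71 and 10.3 CPM, and at 187, 148 and 182 CPM at 2 d, 4 d and 6 d. Sebaceous gland cells held 242 to 353 CPM of Ccnd2 from 4 h on, and 4.17 CPM of Cdkn2d at 4 h (16 UMIs) against 24.3 to 40.5 CPM later. The inner bulge cluster held 245 CPM of Ccnd1, 338 CPM of Ccnd2 and 15.5 CPM of Cdkn1b at 4 h (117 cells), against 44.7, 38.3 and 153 CPM at 0 h from 20 cells. Among the follicle cells, which were clustered again apart, a companion layer cluster led by Pinlyp and Wfdc18 had 65, 672 and 372 cells at 2 d, 4 d and 6 d. It held 105, 218 and 253 CPM of Ccnd1 and 73.9, 132 and 139 CPM of Cdkn1b at these times. T cells held 22.4, 26.1, 19.2, 15.7, 57.1 and 32.7 CPM of Cdkn2c from 0 h to 6 d.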
